A study of Mus musculus with 58 samples.

Results

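Counts of 10 genes were followed in single cells of mouse bone marrow: the stem cell transcription regulators Hlf, Mecom, Mllt3, Prdm16, Tcf15, Erg, Runx1 and Etv6, and the Myc family genes Mycn and Myc. They were taken by name from the 23152 gene symbols of the deposited count table, 12887 of them counted in some cell, and all 10 were present. The study sorted 34 long-term stem cells of the blood (LT-HSC: lineage-, Kit+, Sca-1+, Flt3-, CD34-), and 24 common myeloid progenitors (CMP: lineage-, Kit+, Sca-1-, CD16/32-, CD34+). All 58 cells came from wild-type C57BL/6 mice, with no treatment, age or animal given in the labels. Cells of a gate are therefore not replicates and each gate counts as 1 sample, so no difference below has a replicate check and no test was made. Intervals on levels and ratios are 95% intervals for counting error only, and assume that molecules and not reads were counted, which was not given in the sources used here. Intervals on shares of cells are exact binomial ones that cover the number of cells counted and not the spread between animals.

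Haematopoietic stem cells renew themselves and feed all blood lineages, and a small set of DNA-binding proteins keeps them in that state. Among blood cells, Hlf, Mecom, Prdm16, Mllt3 and Tcf15 are best known from stem cells and their immediate progeny. Erg, Runx1 and Etv6 are used by stem cells and by many committed cells. Myc and Mycn encode closely related proteins that pair with Max, bind E-box DNA and raise genes of ribosome production, metabolism and division. In mouse stem cells the Myc genes are known to act partly in each other's place.

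The stem cell gate pooled 9931131 counts, with a median of 236774 per cell (range 45022 to 860553). The CMP gate pooled 7062737, with a median of 290977 (range 88329 to 706184). At this similar depth an LT-HSC had counts of a median of 4147 genes and a CMP of 6856, and the part of this difference in the shares of cells and in the gene lists below was not tested. Checked against the labels, the 9 stem cell gate and marker genes, among them Procr, Slamf1 and Ly6a, made up a median of 6.32 of 10000 counts per LT-HSC and 1.29 per CMP, and the 8 progenitor genes, among them Mpo and Elane, 5.67 and 51.4. Of other cell types, Ms4a1 and Pax5 of B cells, Cd3e, Cd3g and Cd3d of T cells and Cdh5 of endothelium had no count in any cell. Cd79b of B cells had 802 counts in 14 of 34 LT-HSC, and B cell markers together 342 counts in 15 of 24 CMP. The other endothelial markers had 764 counts in 20 of 34 LT-HSC and 416 in 21 of 24 CMP. T and NK cell markers together had 3465 counts in 20 of 34 LT-HSC, all of them of Nkg7, and 3015 counts in 24 of 24 CMP. They made up a median of 0.069 of 10000 counts per LT-HSC and 3.33 per CMP. The 9 mature neutrophil markers made up a median of 3.38 of 10000 counts in LT-HSC (range 2.19 to 6.06) and 5.30 in CMP (range 0.030 to 59.4). All 34 LT-HSC and CMP 1 and 2 lacked Xist counts and the other 22 CMP had them, so gate and donor sex cannot be told apart except through those 2 cells. CMP 1 and 2 held no count of Hlf, Mecom, Prdm16 or Tcf15 and 1 of Mycn, and stood at 51.2 CPM (counts per 1000000) for Mllt3, 22.5 for Erg, 3.11 for Runx1, 80.7 for Etv6 and 252 for Myc.

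Sequence before the transcription start was available from RefSeq for 8 of the 10 genes (GRCm38.p6, the build mm10), and not for Tcf15 and Myc. The 3 windows shown belong to genes that stood higher in LT-HSC and lie outside the annotated gene, so that they carry the DNA in front of the genes the results turn on. Each is 250 bases of the minus strand, written 5′ to 3′, with matches to 8 fixed motifs in capitals.
Hlf, chr11:90390918-90391167: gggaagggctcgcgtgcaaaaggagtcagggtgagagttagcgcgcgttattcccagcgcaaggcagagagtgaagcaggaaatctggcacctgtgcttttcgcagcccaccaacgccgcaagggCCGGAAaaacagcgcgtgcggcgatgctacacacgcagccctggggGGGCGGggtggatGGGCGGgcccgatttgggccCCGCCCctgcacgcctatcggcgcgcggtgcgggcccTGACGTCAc
Mllt3, chr4:88033408-88033657: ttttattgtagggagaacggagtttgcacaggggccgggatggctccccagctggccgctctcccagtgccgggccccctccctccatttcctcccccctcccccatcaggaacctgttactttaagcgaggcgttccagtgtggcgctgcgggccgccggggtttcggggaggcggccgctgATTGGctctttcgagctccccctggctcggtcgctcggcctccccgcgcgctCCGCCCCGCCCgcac
Prdm16, chr4:154636874-154637123: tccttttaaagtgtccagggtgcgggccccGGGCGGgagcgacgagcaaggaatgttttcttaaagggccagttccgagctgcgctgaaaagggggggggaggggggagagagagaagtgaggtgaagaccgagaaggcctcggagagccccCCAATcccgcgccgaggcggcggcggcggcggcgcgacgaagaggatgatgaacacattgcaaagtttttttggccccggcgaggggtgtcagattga
The motifs, each read on both strands, were GGGCGG for the GC box, the CCAAT box by its name, and TATAAA for the TATA box. For factors they were CACGTG for the E-box of Myc with Max, TGTGGT for Runx proteins, AGATAA for those of the Gata family, CCGGAA for the ETS family, with TGACGT for bZIP proteins. The Hlf window held 3 GC boxes, 1 ETS match and 2 bZIP matches that overlap in the same 8 letters. The Mllt3 window held 2 overlapping GC boxes and 1 CCAAT box, and the Prdm16 window 1 of each. Of all 32851 promoter windows of this length, 32.7% held a GC box, 33.8% a CCAAT box, 12.03% the ETS motif and 6.47% the bZIP core. The E-box, held by 6.02% of windows, was found among the members in 1 window of Runx1. These matches describe letters and are no evidence of binding.

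Of the 10 genes, 6 stood higher in LT-HSC by 2-fold or more, by pooled counts: Hlf, Mecom, Mllt3, Prdm16, Tcf15 and Mycn. None stood at least 2-fold lower, and Erg, Runx1, Etv6 and Myc lay between. Over all 10937 genes with at least 20 counts, 22.7% were higher in LT-HSC by 2-fold or more and 28.1% at least 2-fold lower. The members' median log2 ratio was 2.25, against −0.13 over all these genes. The direction of the 6 held in most subsets of cells, but Mllt3 turned and Prdm16 came close to equal when only LT-HSC 17 to 34 were taken, as given below.

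**Figure D1:**
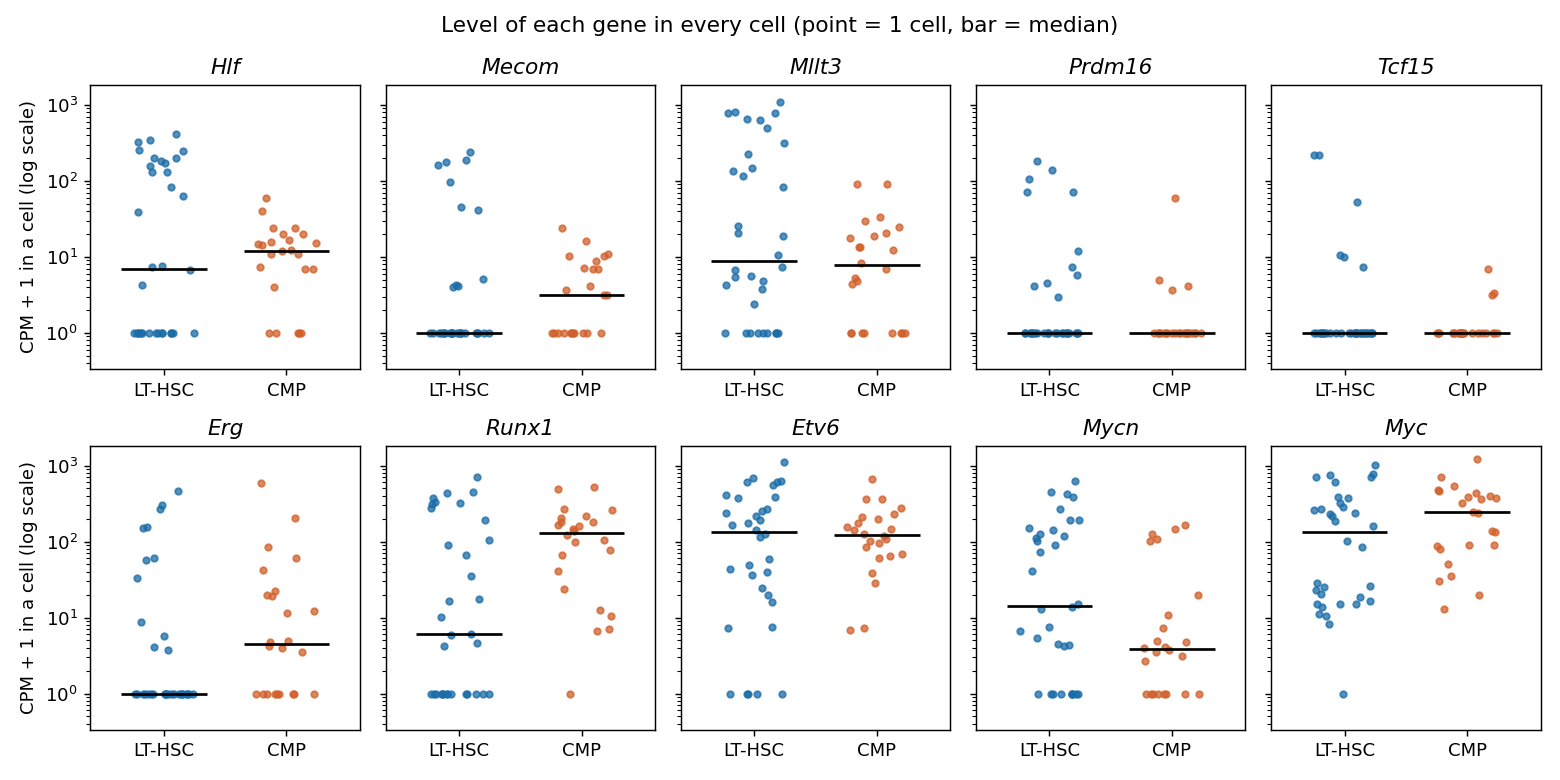
Level of each gene in every cell, as counts per 1000000 (CPM) plus 1 on a log scale; each point is 1 cell, LT-HSC in blue on the left and CMP in orange on the right, and the bar is the median of the gate. Hlf, Mecom and Mllt3 reach above 100 CPM in part of the LT-HSC and stay below 100 CPM in all CMP, while the points of both gates overlap for every gene.

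Hlf encodes a bZIP factor of the proline and acidic amino acid-rich (PAR) family that stem cells need to stay quiescent (chr11:90336536-90390895, minus strand). It had 776 counts in LT-HSC and 94 in CMP. In counts per 1000000 of the pool (CPM), the LT-HSC pool stood at 78.1 (72.7 to 83.8) and the CMP pool at 13.3 (10.8 to 16.3), 5.84-fold apart, with a log2 ratio of 2.55 (2.24 to 2.88). Over cells it ranged from 0 to 418 CPM with a median of 6.00 in LT-HSC, and from 0 to 58.2 with a median of 11.1 in CMP. The level in LT-HSC thus came from part of the cells. In LT-HSC 13 cells had at least 10 counts, 6 had 1 to 9 and 15 had none, whereas in CMP 2 had at least 10, 17 had 1 to 9 and 5 had none. With every cell thinned to 97978 counts, 15 of 30 LT-HSC and 13 of 22 CMP kept a count. CMP 1 and 2 held no Hlf count, so that against these cells the log2 ratio was at least 5.07.

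Mecom encodes a zinc finger factor with a PR domain that is required for stem cell self-renewal (chr3:29951296-30548008, minus strand). It stood at 24.6 CPM (21.6 to 27.9) among LT-HSC, against 3.96 (2.63 to 5.73) among CMP, a log2 ratio of 2.61 (2.06 to 3.25). The level ranged from 0 to 240 CPM over LT-HSC and from 0 to 22.6 over CMP, with medians of 0 and 2.13. At least 10 counts were held by LT-HSC 4, 7, 8, 9, 27 and 34 and by 0 of 24 CMP (0 to 14.2%), yet 11 LT-HSC and 13 CMP had some count, with at most 4 in a CMP. LT-HSC 27 alone held 29.9% of the LT-HSC counts.

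Prdm16, a paralogue of Mecom that also maintains stem cells, lies at chr4:154316125-154636873 on the minus strand. It stood at 13.6 CPM (11.4 to 16.1) among LT-HSC, against 1.56 (0.78 to 2.79) among CMP, a log2 ratio of 3.07 (2.24 to 4.16). Levels ranged from 0 to 182 CPM in LT-HSC and from 0 to 59.2 in CMP, and the median cell of either gate had none. LT-HSC 4, 6, 8 and 13 held 29, 34, 14 and 39 of its 135 counts. Of the 11 CMP counts, 8 were in CMP 6, and without that cell the log2 ratio was 4.76. Prdm16 and Mecom both reached 10 counts in 2 LT-HSC, cells 4 and 8, out of 4 cells that did for Prdm16 and 6 for Mecom.

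Mllt3 encodes a chromatin reader of acylated histones that belongs to elongation and DOT1L complexes and supports stem cell maintenance (chr4:87769925-88033364, minus strand). It stood at 113 CPM (106 to 120) among LT-HSC, against 21.1 (17.8 to 24.8) among CMP, with a log2 ratio of 2.41 (2.17 to 2.67). Cells ranged from 0 to 1085 CPM with a median of 7.92 in LT-HSC, and from 0 to 91.0 with a median of 6.71 in CMP. The medians nearly met and the highest LT-HSC lay far above every CMP. At least 10 counts were held by 13 of 34 LT-HSC and 3 of 24 CMP. CMP 1 held 43.0% of the CMP counts, and without it the log2 ratio was 3.07. Averaged over cells, the levels were 186 CPM in LT-HSC and 15.9 in CMP.

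Tcf15, a bHLH factor that marks dormant stem cells in mice, is a short gene at chr2:152143561-152149097 on the plus strand. It had 138 counts in LT-HSC and 3 in CMP, or 13.9 CPM (11.7 to 16.4) and 0.42 (0.088 to 1.24), a log2 ratio of 4.81 (3.45 to 7.33). Only 6 of 34 LT-HSC and 3 of 24 CMP had a count, and the maxima were 220 and 6.01 CPM. LT-HSC 10, 13 and 22 held 71, 47 and 16 counts, 97.1% of the total. Without LT-HSC 10 the log2 ratio was 3.83. The value therefore rests on 3 cells.

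Erg, Runx1 and Etv6 differed by less than 2-fold. Erg, an ETS factor needed for stem cell function (chr16:95359169-95586593, minus strand), stood at 40.0 CPM (36.1 to 44.1) among LT-HSC, against 44.9 (40.1 to 50.1) among CMP, a log2 ratio of −0.17 (−0.38 to 0.050). It ranged from 0 to 462 CPM in LT-HSC and from 0 to 584 in CMP, and 8 LT-HSC and 4 CMP held at least 10 counts. CMP 5 held 59.3% of the CMP counts, and without it Erg was higher in LT-HSC, with a log2 ratio of 1.06. No direction was drawn for Erg.

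Runx1 encodes the DNA-binding partner of Cbfb that is required for blood stem cells to form (chr16:92601466-92826149, minus strand). It stood at 87.1 CPM (81.4 to 93.1) among LT-HSC, against 127 (119 to 136) among CMP, with a log2 ratio of −0.55 (−0.68 to −0.41). The median cell differed more than the pool. It had 5.005 CPM among LT-HSC, against 128 among CMP, with ranges of 0 to 697 and 0 to 519. A count was found in 20 of 34 LT-HSC (58.8%, 40.7 to 75.4%) and 23 of 24 CMP (95.8%, 78.9 to 99.9%), and after thinning in 15 of 30 and 19 of 22. CMP 1 and 2 went against the other CMP, with 4 and 0 counts, so that against these cells alone the log2 ratio of Runx1 was 4.64.

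Etv6 encodes an ETS repressor that adult stem cells need to survive in the marrow (chr6:134035700-134270158, plus strand). It stood at 207 CPM (198 to 216) among LT-HSC, against 122 (114 to 131) among CMP, a log2 ratio of 0.76 (0.64 to 0.87). The medians over cells were 132 CPM among LT-HSC, against 122 among CMP, with ranges of 0 to 1115 and 5.94 to 657. At least 10 counts were held by 22 of 34 LT-HSC and 21 of 24 CMP, and all 24 CMP had some count. Etv6 was thus found in most cells of both gates.

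Mycn (chr12:12936093-12941914, minus strand) and Myc (chr15:61985391-61990374, plus strand) differed from each other across the gates. Mycn stood at 91.4 CPM (85.6 to 97.6) among LT-HSC, against 21.4 (18.1 to 25.1) among CMP, 4.26-fold higher in LT-HSC, with a log2 ratio of 2.09 (1.85 to 2.35). Cells ranged from 0 to 632 CPM with a median of 13.3 in LT-HSC, and from 0 to 164 with a median of 2.83 in CMP. At least 10 counts were held by 16 of 34 LT-HSC (47.1%, 29.8 to 64.9%) and 4 of 24 CMP (16.7%, 4.74 to 37.4%). The top 3 CMP held 74.2% of the CMP counts. Myc stood at 266 CPM (256 to 276) among LT-HSC, against 292 (279 to 304) among CMP, a log2 ratio of −0.13 (−0.22 to −0.048). Its cells ranged from 0 to 1029 CPM with a median of 132 in LT-HSC, and from 12.02 to 1234 with a median of 242 in CMP. Myc was counted in 33 of the 34 LT-HSC and in every CMP. The small pooled difference of Myc turned with the processing, to 0.13 after thinning, 0.023 with median-of-ratios scaling and 0.011 without CMP 19, so no direction was drawn.

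**Figure D2:**
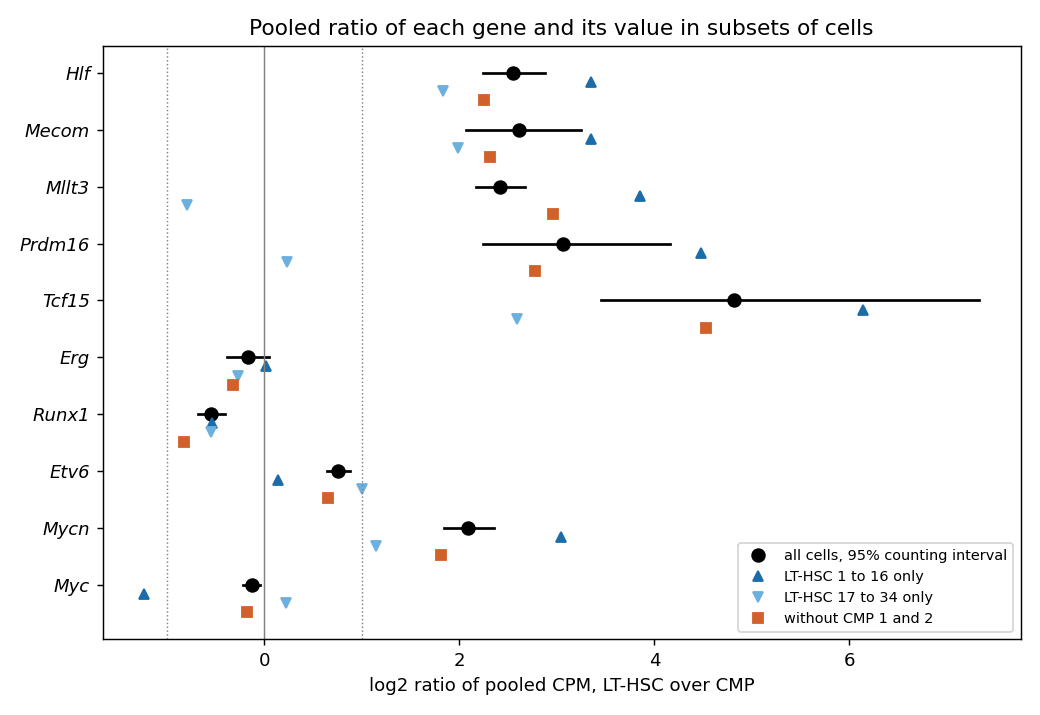
Log2 ratio of pooled CPM, LT-HSC over CMP, for each gene; black points are all cells with 95% counting intervals, blue triangles use part of the LT-HSC, orange squares leave out CMP 1 and 2, and dotted lines mark 2-fold. Mllt3 lies at 3.85 with LT-HSC 1 to 16 and at −0.80 with LT-HSC 17 to 34, and Myc at −1.23 and 0.22.

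The cells of the stem cell gate did not form 1 level. Their titles number them 1 to 34, the labels give that number no meaning, and a split between cells 16 and 17 was known from earlier results of these data, so the values describe the blocks and were not tested. LT-HSC 1 to 16 pooled 3410149 counts and LT-HSC 17 to 34 pooled 6520982. Between the blocks, LT-HSC 1 to 16 held 6 of the 10 genes at least 2-fold higher and 1, Myc, at least 2-fold lower. Over the 9669 genes with at least 20 LT-HSC counts these shares were 26.8% and 29.5%.

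Mllt3 differed most, at 305 CPM (287 to 324) among LT-HSC 1 to 16, against 12.1 (9.59 to 15.1) among LT-HSC 17 to 34, 25.1-fold apart, with a log2 ratio of 4.65 that became 5.74 without LT-HSC 27. At least 10 counts were held by 11 of 16 cells in the first block and 2 of 18 in the other. In LT-HSC 17 to 34 the level of Mllt3 was below that of the CMP pool and near the 14.4 CPM (11.4 to 17.8) of CMP 3 to 24. Prdm16 stood at 36.1 CPM among LT-HSC 1 to 16, against 1.84 among LT-HSC 17 to 34, where no cell reached 10 counts, a log2 ratio of 4.24, or 5.88 without LT-HSC 33. Tcf15 stood at 34.9 and 2.91 CPM in these blocks, and its log2 ratio of 3.55 was 2.39 without LT-HSC 10 and 5.96 without LT-HSC 22. For Hlf the pair was 137 and 47.5 CPM, a log2 ratio of 1.52 (1.31 to 1.74) that became 2.57 without LT-HSC 17. For Mecom it was 41.1 and 15.9 CPM, a log2 ratio of 1.36 (0.99 to 1.74) that became 3.02 without LT-HSC 27.

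The Myc genes ran in opposite directions between the blocks. Mycn stood at 176 CPM (162 to 191) among LT-HSC 1 to 16, against 47.2 (42.1 to 52.8) among LT-HSC 17 to 34, a log2 ratio of 1.90 (1.70 to 2.10), or 2.60 without LT-HSC 34. Myc stood at 124 CPM (113 to 136) among LT-HSC 1 to 16, against 340 (326 to 355) among LT-HSC 17 to 34, a log2 ratio of −1.46 (−1.61 to −1.31). The median cell had 22.2 CPM of Myc in LT-HSC 1 to 16, against 262 in LT-HSC 17 to 34. Runx1 was level, at 87.7 and 86.8 CPM, and Erg stood at 45.5 and 37.1, a log2 ratio of 0.29 that ranged from −0.35 to 1.01 when each cell was left out. Etv6 stood at 134 CPM among LT-HSC 1 to 16, against 244 among LT-HSC 17 to 34, a log2 ratio of −0.86, or −1.44 without LT-HSC 15. With the blocks moved genes of S, G2 and M phase, such as Mki67, Top2a and Pcna: the 18 listed made up a median of 4.10 of 10000 counts in LT-HSC 1 to 16, against 14.1 in LT-HSC 17 to 34, and their part in the Myc values was not tested. The 9 stem cell genes made up medians of 8.79 and 4.31 of 10000 counts in these blocks, and the 8 progenitor genes 3.04 and 9.73. The 5 endothelial markers made up medians of 0.75 in LT-HSC 1 to 16 (maximum 6.65), against 0.023 in LT-HSC 17 to 34 (maximum 2.26), with Cdh5 at 0 in both. Of the T and NK cell markers only Nkg7, 1 of the 5 in the table, had counts in LT-HSC. Its medians were 0 of 10000 in LT-HSC 1 to 16, against 2.78 in LT-HSC 17 to 34 (maximum 16.9). The part of these in the block values was not tested either.

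**Figure D3:**
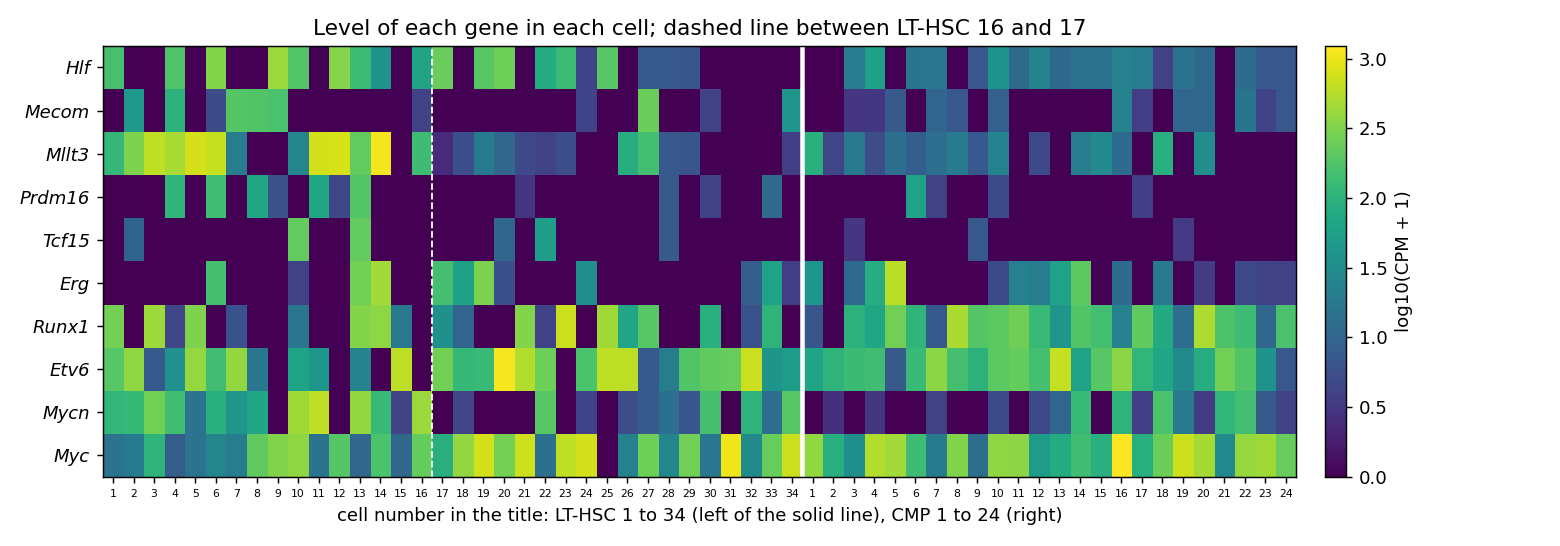
Level of each gene (rows) in each of the 58 cells (columns, by the number in the title), as log10(CPM + 1); the solid white line separates LT-HSC on the left from CMP on the right and the dashed line lies between LT-HSC 16 and 17. Mllt3 is bright in most of LT-HSC 1 to 16 and dim in LT-HSC 17 to 34, and Hlf in CMP is a faint signal spread over 19 of 24 cells.

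Of the 8 regulators, 3 or more reached 10 counts in 12 of 34 LT-HSC and 5 of 24 CMP, with a maximum of 6 and 4 in a cell. At least 1 did so in 33 of 34 LT-HSC and 24 of 24 CMP, with a median of 2 in either gate. Of the 5 regulators higher in LT-HSC by 2-fold or more, at least 1 reached 10 counts in 23 of 34 LT-HSC and 5 of 24 CMP, a difference that the choice of these 5 fixes. At 10 counts or more, 12 LT-HSC held 1 of them, 8 held 2, 3 held 3 or more and 11 held none. In CMP no cell held more than 1 at that level, which was not adjusted for depth. Lower counts were left out, such as 5 of Hlf, 3 of Mecom, 4 of Mllt3 and 1 of Prdm16 in CMP 7. LT-HSC 28, among those with none, had 1 each of Hlf, Mllt3, Prdm16 and Tcf15. The cells with 3 or more at that level all belonged to LT-HSC 1 to 16. There 15 of 16 cells held at least 1, against 8 of 18 in LT-HSC 17 to 34. As all 5 stood at least 2-fold higher in LT-HSC 1 to 16, this difference restates the block levels above. Mllt3 and Mycn reached 10 counts together in 9 LT-HSC, Mllt3 alone in 4 and Mycn alone in 7. All 9 shared cells lay in LT-HSC 1 to 16, where each gene reached 10 counts in 11 of 16 cells. The pair was picked from all pairs of members and both genes stood higher in that block, so no link was drawn.

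Both Myc genes reached 10 counts in 8 of 34 LT-HSC and 3 of 24 CMP. Mycn alone did so in 8 LT-HSC and 1 CMP, and Myc alone in 12 LT-HSC and 17 CMP. At 10 counts or more, 6 cells of LT-HSC 1 to 16 held Mycn alone and 2 Myc alone, against 2 and 10 in LT-HSC 17 to 34. Some Myc count was found in all 16 cells of LT-HSC 1 to 16. Over the 34 LT-HSC the Spearman correlation of their CPM was −0.40, and over the 24 CMP 0.14. Cells were pooled for library preparation and the LT-HSC value spans both blocks, so it is a description only.

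**Figure D4:**
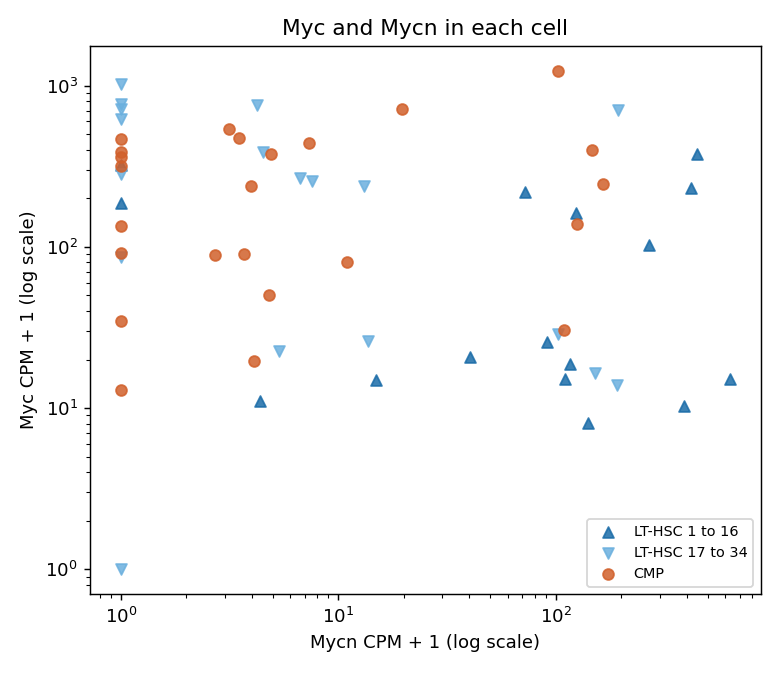
Mycn (horizontal) against Myc (vertical) in each cell, both as CPM plus 1 on log scales; dark and light blue triangles are LT-HSC 1 to 16 and 17 to 34, and orange circles are CMP. Most CMP lie at the left with Myc and little Mycn, while LT-HSC 1 to 16 hold 6 cells with at least 10 counts of Mycn alone.

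The network around Myc was listed as partners, cofactors and targets. All list counts below stand against the 22.7% of all genes higher and 28.1% lower, and all list medians against −0.13 over all genes. Of the 12 genes of the Max and Mlx network, 10 had at least 20 counts, of which 6 were lower in LT-HSC by 2-fold or more and none higher, with a median log2 ratio of −1.07. Mycl and Mlxipl had no count in any cell. Max, the partner of both Myc proteins, stood at 6.95 CPM among LT-HSC, against 26.9 among CMP, and 82.6% of its counts in LT-HSC lay in cell 16, without which the log2 ratio of −1.95 became −4.37. Mnt, a Max-binding repressor, had 1.31 and 45.0 CPM, a log2 ratio of −5.05, or −6.62 without LT-HSC 2. Zbtb17, which Myc binds to repress genes, had 3 counts in LT-HSC and 135 in CMP, a log2 ratio of −5.77 (−8.28 to −4.41), or −6.95 without LT-HSC 6.

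Of 13 genes of Myc turnover and cofactors, 2 were higher in LT-HSC by 2-fold or more, 1 lower and 10 between, with a median of −0.34. Huwe1, a ubiquitin ligase of Myc proteins, stood at 21.4 CPM among LT-HSC, against 108 among CMP. The deubiquitinase gene Usp28 had 5.24 and 0.42 CPM, a log2 ratio of 3.42, with a lower limit of 1.997, or 1.95 without LT-HSC 6. For Trim6 the log2 ratio of 1.12 became −2.50 without LT-HSC 8. Of 30 canonical Myc targets, 29 had enough counts, of which 12 were lower in LT-HSC by 2-fold or more, 1 higher and 16 between, with a median of −0.66, against 28.1% lower, 22.7% higher and a median of −0.13 over all genes. Slc7a5, an amino acid transporter, stood at 0.81 CPM among LT-HSC, against 26.3 among CMP, with a log2 ratio of −4.95 (−6.26 to −4.02), or −5.84 without LT-HSC 8. Cad, which starts pyrimidine synthesis, stood at 7.95 and 34.5 CPM, and Srm, spermidine synthase, at 48.0 and 202.

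Among LT-HSC the summed level of these targets ran against Hlf. The 30 targets made up a median of 74.9 of 10000 counts in LT-HSC (range 26.9 to 117) and 91.8 in CMP (range 56.8 to 148). Over the 34 LT-HSC the Spearman correlation of Hlf CPM with that sum was −0.68. Within the blocks it was −0.61 over LT-HSC 1 to 16 and −0.75 over LT-HSC 17 to 34, and over the 24 CMP, where Hlf was low, 0.16. The same sum was correlated with every member, and Hlf had the most extreme value over LT-HSC, so that value is the top of those compared. Over LT-HSC the other members ranged from −0.20 for Tcf15 to 0.30 for Mycn, with Myc at 0.05. Hlf correlated with total counts at −0.07 over LT-HSC, at 0.54 in LT-HSC 1 to 16 and at −0.47 in LT-HSC 17 to 34, and the part of depth in the values above was not tested. Of the 24 targets with a count in at least 17 LT-HSC, 21 (87.5%) had a negative correlation with Hlf, against 55.8% of all 3381 such genes. The lowest was that of Pa2g4, a growth-regulated RNA-binding protein, at −0.52. Hlf correlated with the summed S, G2 and M phase genes at −0.14. Cells were pooled for library preparation, the sum follows its most abundant genes, and no test was made.

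**Figure D5:**
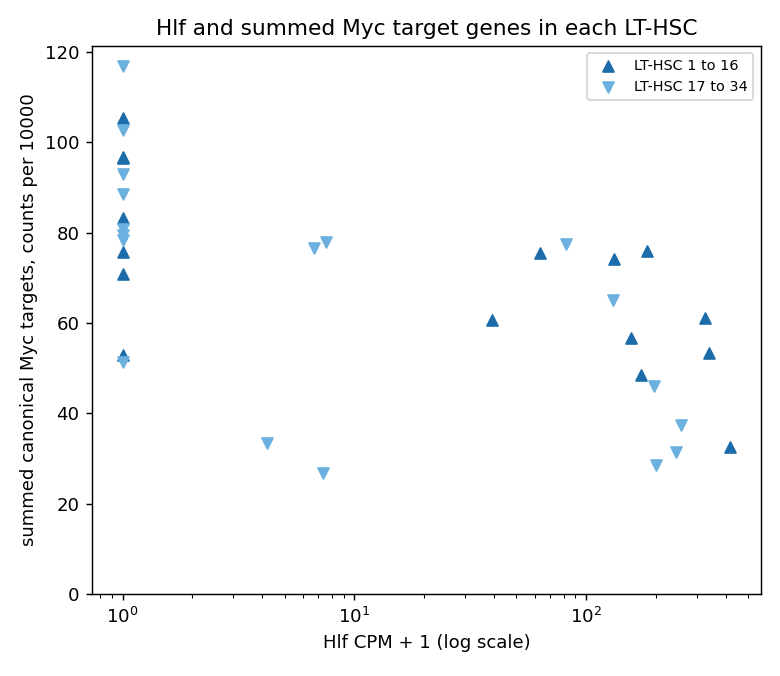
Hlf (horizontal, CPM plus 1 on a log scale) against the summed canonical Myc targets (vertical, counts per 10000) in each of the 34 LT-HSC; dark triangles are LT-HSC 1 to 16 and light triangles LT-HSC 17 to 34. Most cells without Hlf lie above the gate's cells with the most Hlf, and the cell with the most Hlf lies at 32.5. Cells with 1 or 2 Hlf counts lie on both sides, LT-HSC 24 and 28 at 33.4 and 26.9 and LT-HSC 27 and 29 at 77.8 and 76.5.

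Likeness over the 34 LT-HSC was also computed for each member with a count in at least 17 of them, against the other genes with a count in as many. Mllt3 was most like Txnip, which restrains thioredoxin and glucose uptake (Spearman 0.69), and Ermap (0.64). Both values span the blocks, and within them were 0.83 and 0.78 over LT-HSC 1 to 16 and 0.25 and 0.078 over LT-HSC 17 to 34, with Txnip at a mean of 869 CPM among LT-HSC 1 to 16, against 331 among LT-HSC 17 to 34. Hlf was most like Dock10 (0.56) and Snx15 (0.55), and Runx1 like S100a13 (0.58) and Ngdn (0.56). Etv6 was most like the GTPase gene Rac1 (0.61) and Mgst1 (0.58). Mycn was most like Polr2c, an RNA polymerase II subunit (0.59), and Klf2 (0.58), and Myc like the splicing gene Hnrnph1 (0.61) and Gpx1 (0.59). Hlf with Dock10 stood at 0.87 within LT-HSC 1 to 16 and 0.26 within LT-HSC 17 to 34. For Mycn with Klf2 these were 0.73 and 0.21. Over the 12 pairs the value ranged from 0.33 to 0.87 within LT-HSC 1 to 16 and from 0.078 to 0.64 within LT-HSC 17 to 34. Each pair was among the 2 highest of its member, out of 3382 genes with a count in at least 17 LT-HSC. Each value was thus picked from the top of that many.

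Partners and relatives of the stem cell regulators did not share 1 direction. Of 7 partners of Runx1 and Erg in the stem cell factor group, 1 was higher in LT-HSC by 2-fold or more, 1 lower and 5 between, with a median of 0.11 that ranged from −0.28 to 0.51 when each cell was left out. Lyl1, a bHLH factor, stood at 292 CPM among LT-HSC, against 90.3 among CMP, a log2 ratio of 1.69 (1.57 to 1.82), and Lmo2, its bridging partner, at 327 and 188. Cbfb, the partner of all Runx proteins, had 21.95 and 120 CPM, a log2 ratio of −2.45 (−2.67 to −2.24), with at least 10 counts in 6 of 34 LT-HSC and 15 of 24 CMP. Of 6 Runx relatives and partners, 1 was higher in LT-HSC, 2 lower and 3 between, with a median of −0.43. Runx3 had 18.6 and 60.5 CPM, a log2 ratio of −1.70, or −2.67 without LT-HSC 21, and Runx2 had 15.2 and 24.6 CPM, −0.70, or −1.39 without LT-HSC 17.

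Of 18 other stem cell regulators, 16 had at least 20 counts, of which 5 were higher in LT-HSC by 2-fold or more, 3 lower and 8 between, with a median of 0.44, which was −0.64 with LT-HSC 17 to 34 only. Hoxb5, a homeobox gene of stem cells, had 150 counts in 3 LT-HSC and 1 count in CMP, a log2 ratio of 6.16 (4.24 to 12.1), and at least 5.10 without CMP 12. Bmi1, a Polycomb gene, stood at 2.52 CPM among LT-HSC, against 25.3 among CMP, a log2 ratio of −3.31, or −7.38 without LT-HSC 2, and Hmga2 at 8.66 and 44.7 CPM, −2.36, or −1.57 without CMP 5. Of the 3 PAR bZIP relatives of Hlf, 2 had enough counts, 1 higher in LT-HSC and 1 between, and the log2 ratio of Tef was 0.78, or −0.47 without LT-HSC 17.

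Of 15 ETS relatives of Erg and Etv6, 13 had enough counts, with 4 higher in LT-HSC, 4 lower and 5 between, near the shares over all genes, and a median of −0.62, or 0.94 when only cells without Xist were kept. Fev had no count. Ets1 stood at 12.4 CPM among LT-HSC, against 0.99 among CMP, a log2 ratio of 3.55, or 2.61 without LT-HSC 3. Elf2 stood at 6.55 and 66.1 CPM, −3.33, or −4.64 without LT-HSC 34. Elk1 rested on LT-HSC 4, without which its log2 ratio of 3.44 (2.03 to 5.97) became −0.94. Of 8 PRDM relatives of Mecom and Prdm16, 6 had enough counts, 1 higher in LT-HSC, 2 lower and 3 between, with a median of 0.55, which was −0.35 by the mean over cells and below 0 with either LT-HSC block alone. Prdm9, a histone methyltransferase known from meiosis, had 439 counts in 5 LT-HSC, all within LT-HSC 17 to 34, and 2 in 1 CMP, a log2 ratio of 6.97 (5.42 to 10.3), or 6.28 without LT-HSC 32. Prdm2 stood at 2.32 CPM among LT-HSC, against 26.5 among CMP, a log2 ratio of −3.49, or −4.26 without LT-HSC 7, and Prdm4 at 3.02 and 18.1 CPM, −2.57, or −4.06 without LT-HSC 12.

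Of 7 bHLH and Id partners of Tcf15, 5 had enough counts, 2 higher in LT-HSC, 1 lower and 2 between, with a median of −0.26. Id1 and Id2, which block bHLH dimers, stood at 9.47 and 14.5 CPM among LT-HSC, against 0.71 and 2.12 among CMP. Their log2 ratios were 3.61 and 2.73, or 2.69 without LT-HSC 4 and 1.59 without LT-HSC 8. Id1 stood at 26.1 CPM among LT-HSC 1 to 16, against 0.77 among LT-HSC 17 to 34. Id2 stood at 41.6 and 0.31 CPM in these blocks. In LT-HSC 17 to 34, Id1 was thus near its CMP level and Id2 below its own. Tcf12 stood at 4.33 CPM among LT-HSC, against 30.4 among CMP, −2.80, or −3.67 without LT-HSC 31. Of 12 elongation and DOT1L partners of Mllt3, 6 were lower in LT-HSC by 2-fold or more, 1 higher and 5 between, with a median of −1.04, opposite in sign to Mllt3 itself, and 1.24 when only cells without Xist were kept. Mllt10, a DOT1L cofactor, stood at 13.7 and 75.6 CPM, −2.46, or −3.11 without LT-HSC 9. Mllt1, the paralogue of Mllt3, stood at 11.9 and 47.3 CPM, −1.99, or −2.59 without LT-HSC 22, and Aff1 at 5.34 and 24.2 CPM, −2.17, or −4.64 without LT-HSC 8.

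Of 10 lineage determinants of committed cells, 9 had enough counts, of which 6 were lower in LT-HSC by 2-fold or more, none higher and 3 between, with a median of −1.42. Gata1 of the erythroid line stood at 2.62 CPM among LT-HSC, against 65.8 among CMP. Irf8 of the monocyte line stood at 12.6 and 303 CPM, −4.58, or −7.67 without LT-HSC 18, and Cebpa, which granulocytes need, at 0.91 and 14.4 CPM, −3.92 (−5.16 to −3.01).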

How the data were processed

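Bone marrow cells were sorted singly and prepared by a modified Smart-seq2 protocol with a cell barcode and a molecular identifier in the oligo(dT) primer and capture of 3′ ends, per the labels' protocols. TopHat2 2.0.12, HTSeq, Seurat 2.0 and mm10 are listed in the submitters' processing notes without saying what each did. What the authors deposited is a single table of raw whole-number counts, genes by cells, with no normalization; strand use and filters were not given in the sources used here. Antisense or overlapping models lie within Mecom, Prdm16, Runx1 and Etv6, and if strand was not used, their counts cannot be told apart from those genes.

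All 58 columns were matched to cells by title and none was removed; doublets were not searched for, since cells were picked one by one. Counts were summed per gate and scaled to counts per 1000000 (CPM), with exact Poisson intervals at 95%. Log2 ratios (LT-HSC over CMP) were taken after adding 0.5 to either count, with exact conditional binomial intervals. A pool at 0 was taken as 3 counts in the whole pool and its ratio given as a bound. These 3 counts are 0.30 CPM for LT-HSC, 0.42 for CMP and 2.33 for CMP 1 and 2 alone. Shares of cells carry Clopper-Pearson intervals. A gene was counted as higher or lower at 2-fold, among genes with at least 20 counts over both pools. Thinning to 97978 counts, the 10th percentile of totals, left out 4 LT-HSC and 2 CMP. The pooled ratio and its interval were run on counts simulated with the same counting error that the interval assumes. The simulated counts had no spread between cells, so this checked the calculation and not the ratios of these cells. Python 3.11.15, numpy 2.4.6, pandas 2.3.3 and scipy 1.17.1 were used. Gene coordinates are 1-based from GENCODE M21 on mm10.

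The members, lists, block split and alternatives were chosen with earlier results of these data known. Genes named were the 10 members, up to 3 genes per list with the largest log2 ratio among those with at least 50 counts, the 2 most alike per member, and markers and targets given as examples. Mki67, Pcna and other marker examples, and Pa2g4, were chosen outside that rule. Alternatives were CPM averaged over cells, scaling by median of ratios, totals that omit ribosomal protein genes, omitting shallow cells, thinning, adding 1 to counts, omitting each cell, either LT-HSC block, leaving out CMP 1 and 2 and keeping only cells without Xist. Leaving out the largest cell of each gate was added after the data were seen.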

Additional observations from a re-analysis of the deposited data

How the results depend on the processing

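No paired analysis was possible because the cell numbers in the titles only name cells, each gate is 1 sample and no test was made. Adding 1 to counts, totals that omit ribosomal protein genes and omitting shallow cells moved no member's log2 ratio outside its counting interval.

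Values outside the counting interval follow, as log2 ratios of LT-HSC over CMP. With LT-HSC 1 to 16 only, Hlf was 3.35, Mecom 3.35, Mllt3 3.85, Prdm16 4.48, Etv6 0.14, Mycn 3.04 and Myc −1.23, with 1 member at least 2-fold lower in LT-HSC and a median log2 ratio of the members of 3.19. With LT-HSC 17 to 34 only, Mllt3 reversed to −0.80, Hlf was 1.83, Mecom 1.99, Prdm16 0.24, Tcf15 2.59, Etv6 0.999, Mycn 1.14 and Myc 0.22, with a median of 0.62 and 4 members at least 2-fold higher. With CPM averaged over cells, Mllt3 was 3.55, Runx1 −0.41, Etv6 0.49, Mycn 1.83 and Myc −0.31. Median-of-ratios scaling added 0.15 to every gene and gave Runx1 −0.39, Etv6 0.91 and Myc 0.023. After thinning, Mllt3 was 3.18, Prdm16 2.23, Etv6 0.63 and Myc 0.13. Without CMP 1 and 2, Mllt3 was 2.96, Runx1 −0.83 and Mycn 1.81.

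With only cells without an Xist count, which leaves CMP 1 and 2, Hlf was at least 5.07 and Mecom at least 3.40, Mllt3 was 1.13, Erg 0.81, Runx1 4.64, Etv6 1.35, Mycn 6.30 and Myc 0.075, with a median of at least 2.56, since its middle genes Prdm16 and Tcf15 were bounds. The Mycn value of 6.30 rests on 1 count in CMP 1 and 2, or 0.78 CPM (0.020 to 4.33). That is below the 3 counts taken for a pool at 0, so its size is uncertain. Without the largest cell of each gate, Mllt3 was 2.79, Prdm16 4.30, Erg 0.70 and Mycn 2.46. The cause of each move was not tested. Among the lists, the median of the PAR bZIP genes reversed from 1.71 to −0.026 after thinning, and that of the Mllt3 partners from −1.04 to 1.24 in cells without Xist. Signs also changed in some settings where the value over all cells was below 2-fold. Among the members these were Erg, Runx1 and Myc. Among the lists they included the medians of the ETS, PRDM and other stem cell regulator lists and of the partners of Runx1 and Erg.

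Leaving out each cell gave ranges of 2.28 to 2.93 for Hlf, 2.14 to 2.77 for Mecom, 2.14 to 3.07 for Mllt3, 2.61 to 4.76 for Prdm16, 3.83 to 5.27 for Tcf15, −0.53 to 1.06 for Erg, −0.80 to −0.25 for Runx1, 0.61 to 0.90 for Etv6, 1.89 to 2.66 for Mycn and −0.33 to 0.011 for Myc. The median ranged from 2.14 to 2.52 and the members at least 2-fold higher from 6 to 7. A pool at 0 allows 0.30 CPM in LT-HSC and 0.42 in CMP. It allows 2.33 CPM in CMP 1 and 2 alone, the pool that the bounds of the members rest on.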
